A study of Mus musculus with 6 samples.

Results

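The DNA damage checkpoint and repair genes are 44 mouse genes that were chosen by symbol for their known roles from the 23420 gene symbols of a count table. They comprise 8 genes of checkpoint signalling and damage sensing, 12 of homologous recombination, 9 of the Fanconi pathway, 5 of end joining, 5 of single-strand break and base excision repair, 2 of mismatch repair and 3 of nucleotide excision repair. All 44 passed the filter on low counts, which 11608 genes of the table passed, and the lowest count of a member in any culture was 19 (Rad51b).

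The measurements are bulk RNA sequencing of eEnd2 cells, an endothelial line derived from mouse embryos, at confluence and without treatment. Every culture carried a stably transfected human Integrin-β1A with GFP in its extracellular part, driven by a short human β-actin promoter next to a matrix attachment region. In 3 cultures (A, B and C, here WT) this integrin was wildtype, and in 3 cultures (A, B and C, here K794Q) glutamine replaced the lysine, which mimics acetylation. The cells were sorted GFP-positive pools beside the mouse integrin of the line itself, the GFP population behind each culture is not named in the sources used here, and the 3 cultures of a genotype were grown from its sorted cells, so that p-values measure the spread between these samples only.

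Cells repair broken or altered DNA through several routes. Homologous recombination copies the sister chromatid and works mainly in S and G2 phase, the Fanconi pathway removes crosslinks that block replication, and end joining rejoins ends without a template through most of the cycle. Excision and mismatch repair replace damaged or mispaired bases, and checkpoint kinases hold the cycle while repair runs. Many genes of recombination and of the Fanconi pathway are transcribed with the replication genes in dividing cells.

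Library totals in counts were, for WT, 10918600 (A), 9589826 (B) and 15287191 (C) and, for K794Q, 10203916 (A), 11197729 (B) and 11071680 (C). Values are given as CPM (counts scaled to a common library total by TMM, with the cpm function of edgeR). From counting error alone, a gene with 0 counts could have an expected count of up to 3. Such a count is 0.209 CPM in WT culture C and at most 0.300 CPM elsewhere. The cultures of a group were unequally alike, which bears on each result below. WT cultures A and B had 65 genes at least 2-fold apart, whereas WT culture C was at least 2-fold apart from A in 2701 genes and from B in 2539. Among the K794Q cultures, B was at least 2-fold apart from A in 2000 genes and from C in 2560, and A and C in 903. WT culture C and K794Q culture B thus stood apart from the other cultures of their groups. In bulk RNA, a change in the share of cells that are cycling and a change in RNA per cell cannot be told apart.

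The comparison of K794Q with WT asks whether transcripts of checkpoint and repair genes differ in cells with the acetyl-mimetic integrin. To be called, a gene had to differ 2-fold or more with an unadjusted p ≤ 0.05 in edgeR's quasi-likelihood F-test. Of the 44 members 1, Msh6, was called higher and 0 were called lower, beside 603 of all 11608 genes tested (5.19%), of which 404 were higher (3.48%) and 199 lower (1.71%). By edgeR's Benjamini-Hochberg adjusted p over all genes, 0 members were at or under 0.05 (21 genes, 0.181%, of all tested), and 1 member had an unadjusted p ≤ 0.05; DESeq2 gave the same 2 counts of members. In 0 of the 44 members did the K794Q cultures all lie above or all below the WT cultures, whereas this held for 1923 genes of all tested (16.6%), 981 of them with K794Q above (8.45%). With RLE in place of TMM scaling it held for 1 member, Fancg. The median log2 fold change was 0.29 over the members and −0.02 over all genes tested, and 33 members (75.0%) had a positive value beside 48.4% of all genes. In all 44 members the range between cultures of 1 group was larger than the difference between the groups, as it was in 89.3% of all genes.

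**Figure D1:**
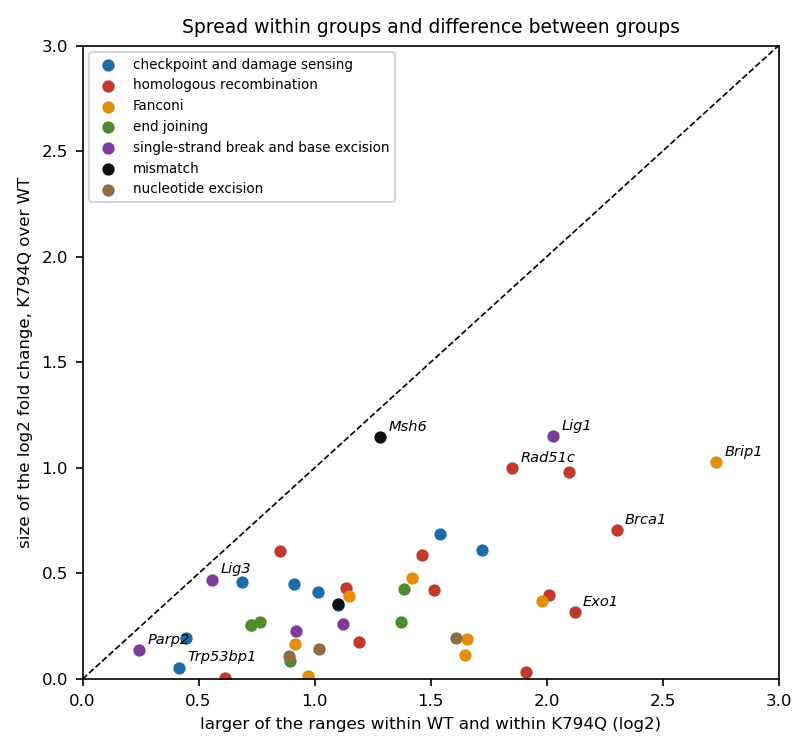
Each point is 1 of the 44 genes, with the larger of its ranges within the WT and within the K794Q cultures on the x axis and the size of its log2 fold change, K794Q over WT, on the y axis, both in log2 units. All 44 points lie below the dashed line of equal values, with Lig3, Parp2 and Msh6 nearest to it and Brip1 at the widest range, 2.73.

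Msh6, which recognizes base mismatches, lies on chromosome 17 (87975062 to 87990892, GRCm38). It was at 37.0, 36.3 and 54.5 CPM in WT cultures A, B and C and at 109, 50.5 and 124 CPM in K794Q cultures A, B and C. K794Q cultures A and C were above every WT culture, while K794Q culture B was below WT culture C, so that the groups overlapped. The log2 fold change was 1.14 (SE 0.37, unadjusted p = 0.0199), which did not pass correction over all genes (edgeR, adjusted p = 0.348). Without WT culture A, WT culture B, K794Q culture A or K794Q culture C the call was lost, and the log2 fold change lay between 0.90 and 1.45 over the 6 fits that each left out 1 culture. Pms2, which cuts the mismatched strand, had a log2 fold change of 0.35 and ran from 17.7 to 22.5 CPM in WT and from 15.9 to 34.6 CPM in K794Q cultures.

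The 8 checkpoint and damage sensing genes had log2 fold changes between −0.05 and 0.69, with a median of 0.43. Chek1, the kinase that ATR activates at stalled forks, was at 7.95, 6.49 and 22.5 CPM in WT cultures A, B and C and at 22.2, 7.79 and 26.5 CPM in K794Q cultures A, B and C. WT culture C was as high as K794Q cultures A and C, and K794Q culture B was as low as WT cultures A and B, which left a log2 fold change of 0.61 (SE 0.64, edgeR adjusted p = 0.844). Topbp1, which activates ATR, was likewise higher in WT culture C and K794Q cultures A and C than in the other 3 cultures, from 96.3 CPM in K794Q culture B to 281 CPM in K794Q culture A, and the highest log2 fold change of this role, 0.69 (SE 0.45). H2afx, the histone variant phosphorylated around breaks, was at 36.8, 28.0 and 57.0 CPM in WT and at 38.6, 49.0 and 74.8 CPM in K794Q cultures A, B and C. It was highest in culture C of each group, and the groups overlapped. Trp53bp1, which binds chromatin at breaks and favours end joining, was at 145, 127 and 114 CPM in WT and at 110, 146 and 116 CPM in K794Q cultures A, B and C. Its cultures lay close together, in an order unlike that of Chek1, with a log2 fold change of −0.05 (SE 0.19). Mdc1, the adaptor that binds phosphorylated H2afx, had a log2 fold change of 0.46, and the 3 genes of the end-processing complex that senses breaks had 0.45 (Mre11a), 0.35 (Rad50) and 0.19 (Nbn).

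The 12 homologous recombination genes had a median log2 fold change of 0.42, and in all 12 WT culture C was the highest WT culture and K794Q culture B the lowest K794Q culture. Brca1, the ubiquitin ligase that promotes end resection, lies on chromosome 11 (101488764 to 101551955) and was at 33.5, 26.7 and 67.3 CPM in WT and at 76.9, 21.8 and 109 CPM in K794Q cultures A, B and C. K794Q culture B was the lowest of all 6, K794Q cultures A and C the highest, and the log2 fold change was 0.71 (SE 0.62, edgeR adjusted p = 0.808). Brca2, which acts on resected single strands, was at 28.7, 25.5 and 62.6 CPM in WT and at 96.6, 25 and 109 CPM in K794Q cultures A, B and C. The spread among its K794Q cultures was about 4-fold, and the log2 fold change of 0.98 (SE 0.61) did not pass the test. Rad51c, which acts in strand exchange, was at 6.99, 7.69 and 11.7 CPM in WT and at 24.4, 6.41 and 21.9 CPM in K794Q cultures A, B and C. K794Q cultures A and C were above every WT culture and K794Q culture B was below all of them, with a log2 fold change of 1.00 (SE 0.52). Bard1, the partner of Brca1, differed from this in that K794Q culture B, at 25.5 CPM, was close to K794Q culture A, at 28.7 CPM, and WT culture C was the highest of all cultures, at 47.7 CPM beside 12.3 and 11.5 CPM in WT cultures A and B. The resection and branch-processing genes Exo1 and Blm were spread alike in both groups: Exo1 ran from 8.04 to 30.2 CPM in WT and from 6.60 to 30.4 CPM in K794Q cultures, and its log2 fold change was 0.32 (SE 0.73), while that of Blm was −0.03 (SE 0.65). The other members of this role were Rad51b (0.61), Rad54l (0.59), Rad51ap1 (0.43), Palb2 (0.42), Xrcc2 (0.18) and the resection factor Rbbp8 (−0.01), each given with its log2 fold change, and none of them passed either threshold.

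The 9 Fanconi pathway genes had log2 fold changes from −0.19 to 1.03, with a median of 0.26. Brip1, the helicase that binds Brca1, had the highest, 1.03 (SE 0.67, edgeR adjusted p = 0.711). It was at 22.1, 16.4 and 33.6 CPM in WT and at 57.9, 11.3 and 78.0 CPM in K794Q cultures A, B and C. Its K794Q cultures were the farthest apart of any member, A and C above and B below every WT culture. Fancd2, which is ubiquitinated together with Fanci at blocked forks, had the lowest value, −0.19 (SE 0.60), from 12.4, 10.9 and 35.4 CPM in WT and 14.8, 9.17 and 27.5 CPM in K794Q cultures A, B and C. Culture C was the highest of each group, and WT culture C was above all K794Q cultures. Fanca, Fancb, Fancg, Fancl and Fancm, all parts of the core complex or its anchor, had log2 fold changes of 0.37, 0.17, 0.26, 0.48 and 0.39, and those of Fancc and Fanci were 0.02 and 0.12. Fancb and Fancg departed from the order of cultures seen in the other Fanconi genes, and in Fancg WT culture C was the lowest at 17.7 CPM, with the other 5 cultures between 29.2 and 31.1 CPM.

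The 5 end joining genes had a median log2 fold change of 0.08. Xrcc5, the Ku80 subunit that holds broken ends, was at 21.8, 20.3 and 53.8 CPM in WT and at 20.6, 20.2 and 30.7 CPM in K794Q cultures A, B and C. WT culture C alone was far above the rest, and the log2 fold change of −0.43 (SE 0.43) became 0.19 without it. Xrcc6, the Ku70 subunit, had a log2 fold change of 0.08. Prkdc, the catalytic subunit of the kinase that Ku recruits, was at 80.5, 66.0 and 112 CPM in WT and at 123, 78.6 and 111 CPM in K794Q cultures A, B and C. WT culture C and K794Q cultures A and C were again the higher ones, and the log2 fold change was 0.27 (SE 0.27). Xrcc4, the scaffold of the ligation step, went the other way, at 23.5, 20.4 and 8.76 CPM in WT and at 15.2, 16.7 and 11.8 CPM in K794Q cultures A, B and C. Culture C was the lowest of each group, and the groups overlapped at a log2 fold change of −0.27 (SE 0.39). Lig4, the ligase bound to Xrcc4, was highest in K794Q culture B at 32.0 CPM and lowest in WT culture C at 15 CPM, with a log2 fold change of 0.25.

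Among the 5 genes of single-strand break and base excision repair the 2 ligases lay at opposite ends. Lig1, which also joins Okazaki fragments during replication, had the highest log2 fold change of all members, 1.15 (SE 0.59), and an unadjusted p of 0.0986. It was at 28.0, 21.7 and 58.2 CPM in WT and at 88.1, 29.6 and 122 CPM in K794Q cultures A, B and C. K794Q culture B lay within the range of the WT cultures, and K794Q cultures A and C above it. Lig3, the ligase that works with Xrcc1, had the lowest log2 fold change of all members, −0.47 (SE 0.22, unadjusted p = 0.0766; edgeR adjusted p = 0.568). It was at 110, 120 and 156 CPM in WT and at 112, 75.8 and 90.8 CPM in K794Q cultures A, B and C. The groups overlapped only through WT culture A and K794Q culture A, which were nearly equal. Parp1, the poly(ADP-ribose) polymerase that detects strand breaks, was at 140, 116 and 159 CPM in WT and at 111, 73.8 and 162 CPM in K794Q cultures A, B and C. K794Q culture C was the highest of all and K794Q culture B the lowest, for a log2 fold change of −0.26 (SE 0.31). Parp2, a second such polymerase, had the narrowest spread, between 30.0 and 39.1 CPM over all 6 cultures, with a log2 fold change of −0.14 (SE 0.17), and Xrcc1, the scaffold protein of this route, had 0.23.

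The 3 nucleotide excision repair genes had a median log2 fold change of −0.11, and in 0 of them were WT culture C the highest and K794Q culture B the lowest of their groups. Ercc1, part of the nuclease that cuts 5′ of a lesion, was at 13.7, 12.6 and 39.4 CPM in WT and at 17.1, 25.1 and 15.3 CPM in K794Q cultures A, B and C. WT culture C was the highest and the other WT cultures the lowest, so that the log2 fold change of −0.19 (SE 0.50) became 0.55 without WT culture C. Ercc2, a helicase of the transcription factor TFIIH, had a log2 fold change of −0.11. Ercc6, which acts where RNA polymerase stalls at damage, was between 58.5 and 61.6 CPM in the WT cultures and at 60.6, 93.3 and 45.8 CPM in K794Q cultures A, B and C, the highest in the culture where Brca1 and Brip1 were lowest.

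**Figure D2:**
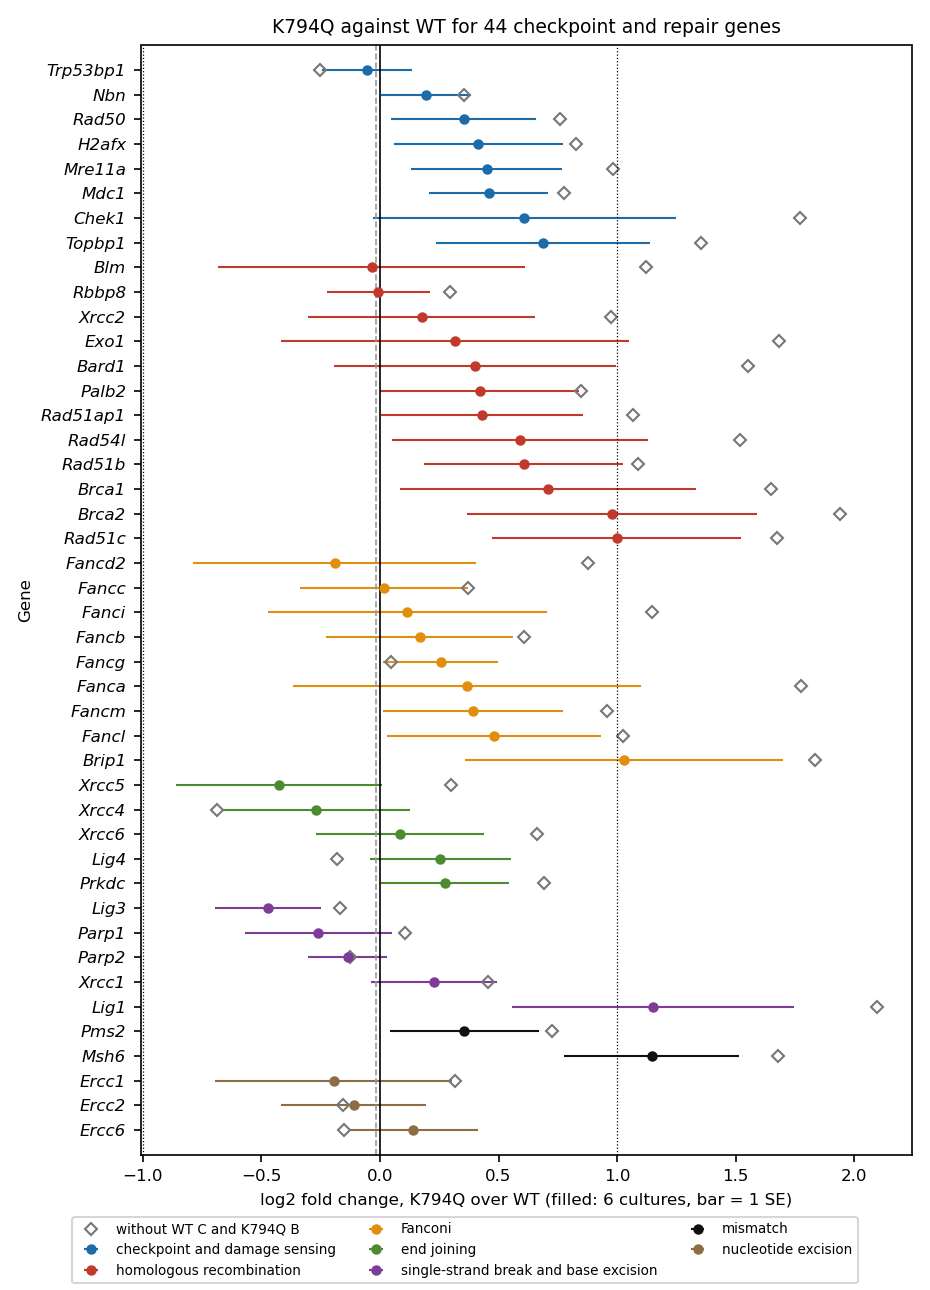
Filled points show the log2 fold change, K794Q over WT, of each gene in the fit to all 6 cultures, with bars of 1 SE and colours for the roles, and open diamonds show it without WT C and K794Q B. Dotted lines mark 2-fold and the dashed line the median of all genes tested, −0.02. Msh6, Lig1 and Brip1 lie beyond 2-fold with all cultures, and most checkpoint, recombination and Fanconi genes move to the right without the 2 cultures.

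Levels of different genes can be compared only roughly per length of exon, because the length counts all annotated exons of a gene. Per kilobase of annotated exon, the mean over the 6 cultures was highest for H2afx (34.2 CPM per kb), Parp1 (24), Msh6 (15.8) and Topbp1 (15.6), and lowest for Fancc (0.769), Rad51b (0.932) and Palb2 (1.54). The 9 Fanconi genes ran from 0.769 to 7.36 CPM per kb, the highest being Fancg, which also differed from the others in its order of cultures.

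The order of cultures was the feature that most members shared. WT culture C was the highest WT culture in 36 of the 44 members (81.8%, beside 45.2% of all genes tested), and K794Q culture B the lowest K794Q culture in 35 (79.5%, beside 41.5%). Both held in 32 members, or 72.7%, beside 19.5% of all genes, 44.6% of 74 other repair and checkpoint genes and 94.4% of 18 G2/M genes. The 12 members without this order were Trp53bp1, H2afx, Nbn, Fancb, Fancg, Xrcc4, Lig4, Xrcc1, Parp2, Ercc1, Ercc2 and Ercc6. Relative to each gene's mean over the 6 cultures, the median log2 level of the homologous recombination genes was −0.46, −0.71 and 0.44 in WT cultures A to C, and in K794Q cultures A to C it was 0.45, −0.64 and 0.76. The corresponding medians of the nucleotide excision genes were −0.02, −0.08 and −0.01 in WT and −0.03, 0.40 and −0.30 in K794Q cultures. Recombination genes were thus high in WT culture C and K794Q cultures A and C and low in the other 3 cultures, and nucleotide excision genes were not.

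**Figure D3:**
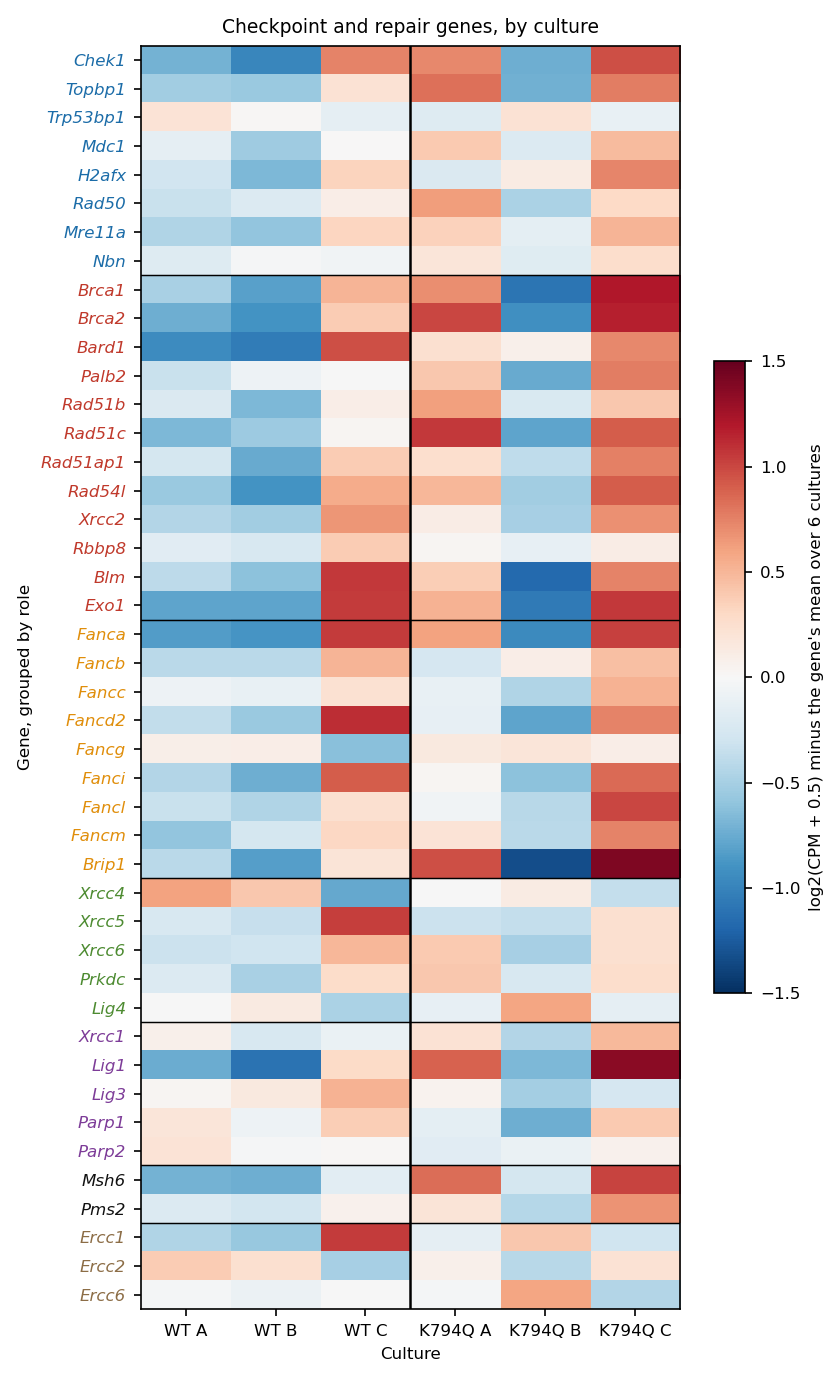
Each row is 1 gene and each column 1 culture, coloured by log2(CPM + 0.5) minus the gene's mean over the 6 cultures, with red above and blue below the mean, and gene names coloured by role. WT C, K794Q A and K794Q C are red and WT A, WT B and K794Q B are blue for most checkpoint, recombination and Fanconi genes. The end joining genes Xrcc6 and Prkdc share this pattern, and Xrcc4, Lig4, Parp2 and the Ercc genes are paler or ordered otherwise.

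Genes of the cell cycle moved with this order. A list of 22 S phase genes, all tested, had a summed level of 614, 525 and 1701 CPM in WT cultures A, B and C and of 2013, 664 and 2499 CPM in K794Q cultures A, B and C, with Rrm1 the most abundant, and 21 of the 22 had the order of cultures described above. Of these S phase genes 3 were called higher (Ccne2, E2f1 and Tyms) and 0 lower, beside 3.48% and 1.71% of all genes tested. The median log2 fold change of the S phase genes was 0.86. A list of 18 G2/M genes, led by Top2a, had a summed level of 783, 638 and 2506 CPM in WT and of 1249, 752 and 2097 CPM in K794Q cultures A, B and C, with 0 called by edgeR's test, 0 of them at an unadjusted p of at most 0.05 and a median log2 fold change of −0.01. The recombination genes summed to 177, 158 and 376 CPM in WT and 375, 165 and 469 CPM in K794Q cultures A, B and C. K794Q culture A was thus nearly level with WT culture C for the summed recombination genes, above it for S phase genes and below it for G2/M genes. The part of the cell cycle in the levels of the repair genes was not tested.

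**Figure D4:**
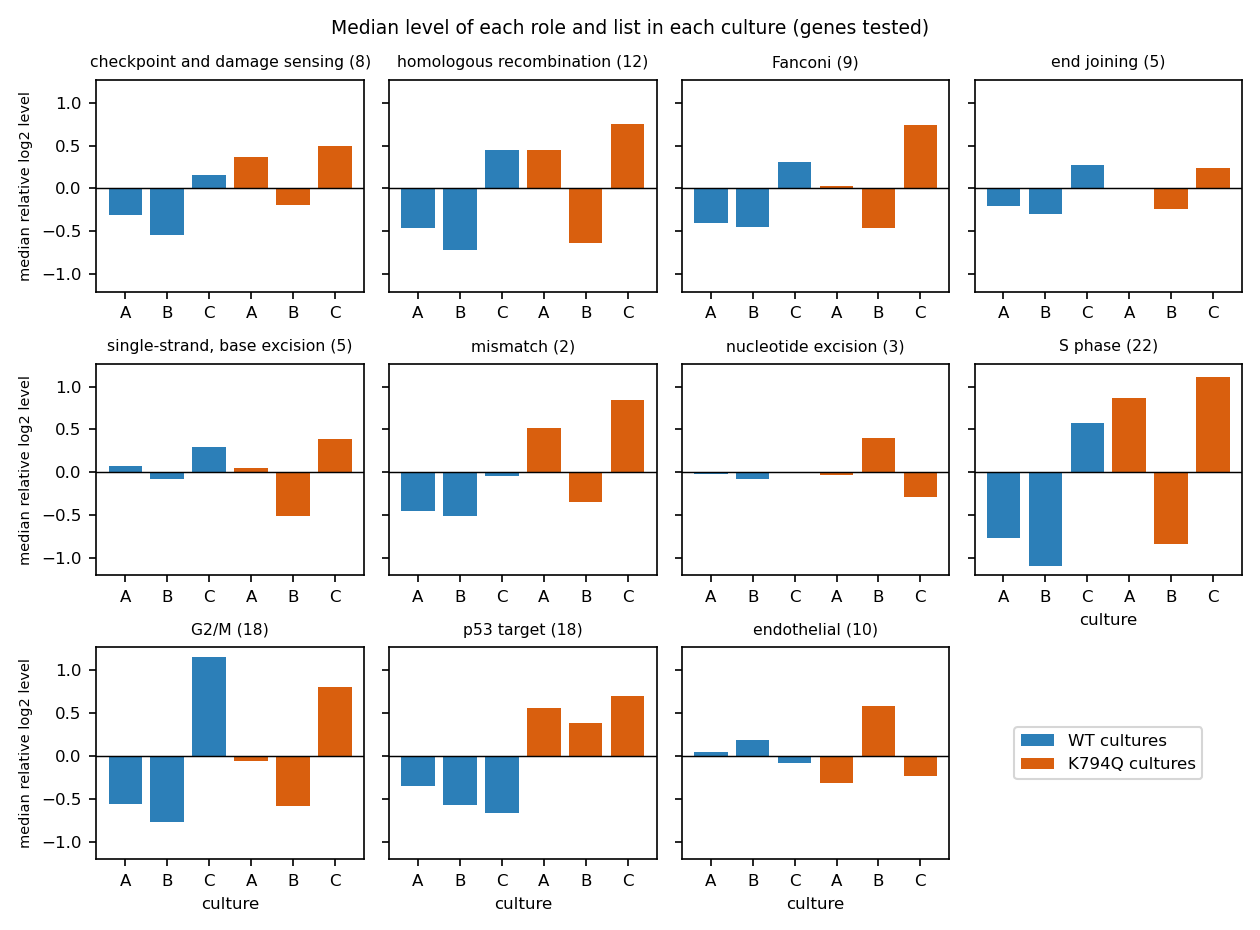
Bars give, for each role of the repair genes and for 4 other lists, the median over its tested genes (number in brackets) of log2(CPM + 0.5) minus the gene's mean over the 6 cultures, in WT cultures A, B and C (blue) and K794Q cultures A, B and C (orange). The recombination genes run from −0.71 in WT B to 0.76 in K794Q C with the same signs as the S phase genes, and the p53 target genes are above 0 in all K794Q cultures and below 0 in all WT cultures.

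Since WT culture C and K794Q culture B stood apart, the fit was repeated without them. Without WT culture C, 3 members (Bard1, Lig1 and Msh6) were called higher, beside 5.84% of all genes. Without K794Q culture B, 7 members (Brca1, Brca2, Brip1, Lig1, Msh6, Rad51c and Topbp1) were called higher, beside 4.8% of all genes. Without both, 17 members were called higher and 0 lower, beside 1106 of all genes (9.53%) called higher, and the median log2 fold change of the members was 0.84. They were Chek1 and Topbp1 of the checkpoint genes, Brca1, Brca2, Bard1, Blm, Exo1, Rad51ap1, Rad51b, Rad51c and Rad54l of the recombination genes, Brip1, Fanca, Fanci and Fancl of the Fanconi genes, and Lig1 and Msh6. The log2 fold changes of Lig1, Brca2, Chek1, Fanca and Msh6 were 2.09, 1.94, 1.77, 1.77 and 1.68 without the 2 cultures, beside 1.15, 0.98, 0.61, 0.37 and 1.14 with them. In that fit 17 members had an edgeR adjusted p of at most 0.05 (14.6% of all genes), 13 of which were among those called. The other 4 with such an adjusted p were Mre11a, Rad50, Mdc1 and the end joining gene Prkdc (log2 fold change 0.69, edgeR adjusted p = 0.0427). No end joining or nucleotide excision gene passed both thresholds in it, Xrcc6 and Xrcc4 were at 0.66 and −0.69, and the log2 fold changes of Trp53bp1, Parp1 and Parp2 were −0.25, 0.11 and −0.13. The fit without both compares the 2 most alike WT cultures with the 2 most alike K794Q cultures, and the 2 cultures left out are those in which most members were high for WT or low for K794Q. With WT cultures A and B summed into 1 sample, a comparison added after the data were seen, 0 members were called, 0 of them at an unadjusted p of at most 0.05 in edgeR, beside 480 of all genes called (4.14%).

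Positions on the chromosomes were a further feature that the choice of genes did not use. On chromosome 11, the median level of the 25 tested genes around a member, in log2 over the WT mean, was −0.76 at Lig3, −0.74 at Brip1, −0.67 at Rad51c and −0.49 at Brca1 in K794Q culture B, and between −0.08 and 0.16 at these 4 genes in K794Q cultures A and C. Around Rad50 and Fancl, on the same chromosome but nearer its start, it was −0.06 and −0.10 in K794Q culture B. Other members low in K794Q culture B differed in this. Brca2, Chek1 and Blm had level neighbours there, at 0.03, 0.02 and −0.09. Those of Mdc1, on chromosome 17, were lowered there, at −0.36, as were those of Parp1 and Exo1 given below. Around Brca2 the neighbours were at 0.21 and 0.40 in K794Q cultures A and C, and its log2 fold change went from 0.98 to 0.69 with the regional level. With the regional level taken into the fit, Rad51c was called higher (log2 fold change 1.03, unadjusted p = 0.0275) beside Msh6, and Brip1, Brca1 and Lig3 had log2 fold changes of 1.14, 0.80 and −0.26 and were not called, beside 503 of all genes called in that fit (4.33%). On chromosome 1, the neighbours of Parp1 (180568924 to 180601254) were at −0.65, −0.69 and −0.41 in K794Q cultures A, B and C, and the log2 fold change of Parp1 became 0.29 with the regional level taken into account. Bard1 and Xrcc5, also on chromosome 1 but about 100 Mb away, had neighbours between −0.15 and 0.10 in the K794Q cultures. Exo1, about 5 Mb from Parp1, had neighbours at −0.36 in WT culture C and at −0.09, −0.59 and −0.65 in K794Q cultures A, B and C, and its log2 fold change went from 0.32 to 0.58 with the regional level. Raised neighbours were found in K794Q culture B around Lig4 (0.46), Ercc6 (0.37) and Fancg (0.31), 3 of the 4 members highest in that culture, but also around H2afx (0.27) and Parp2 (0.23), which were not. The neighbours of Trp53bp1, the 4th such member, were at −0.0659, and those of Xrcc4, higher there than in the other K794Q cultures, at −0.36. The log2 fold changes of Lig4, Ercc6 and Fancg went from 0.25 to 0.0559, from 0.14 to 0.0455 and from 0.26 to 0.18 with the regional level.

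Since most recombination and checkpoint members shared an order of cultures, their promoters were searched for letters bound by cell cycle factors. RefSeq windows from 250 bases before to 50 after the start (GRCm38.p6) were found for 36 members, 42 windows in all. The E2F-type word TTTCCCGC, with C or G allowed as its letters 4 and 5, was searched on either strand and was in 10 of the 42 windows (23.8%), beside 744 of all 32851 windows (2.26%), 6.35% of the windows of other repair and checkpoint genes and 44.4% of those of the S phase list. All windows include those of noncoding and predicted genes and were not matched for base composition. The 10 windows belonged to 9 members: Topbp1, Mdc1, Brca2, Bard1, Rad51c, Fancg, Xrcc6, Lig1 and Msh6. Of these, Fancg did not share the order of cultures. Most members with a window had no such word. Among them were Brca1, Chek1 and Brip1, which shared the order, and Trp53bp1 and Parp2, which did not. The word CCAAT, the core of the box bound by NF-Y, was in 50% of the members' windows on either strand, beside 37.4% of all windows, 52.4% of those of the other repair and checkpoint genes and 72.2% of those of the S phase list. The CHR-type words TTTGAA and TTCGAA, common at genes of mitosis, were in 4.76% of the members' windows, 19.2% of all windows and 73.3% of those of the G2/M list. The windows of 4 members are shown, those of the called gene Msh6 and of Brca2, Topbp1 and Brip1, which were chosen after the words had been searched, with E2F-type and CCAAT words, on either strand, in capitals.
Msh6, chr17:87974800-87975099, plus strand: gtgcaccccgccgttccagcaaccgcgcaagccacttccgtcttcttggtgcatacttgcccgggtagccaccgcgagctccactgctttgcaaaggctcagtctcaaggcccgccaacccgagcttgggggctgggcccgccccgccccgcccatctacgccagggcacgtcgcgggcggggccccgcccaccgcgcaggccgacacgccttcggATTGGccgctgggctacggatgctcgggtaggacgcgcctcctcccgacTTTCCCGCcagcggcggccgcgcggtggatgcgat
Brca2, chr5:150522371-150522670, plus strand: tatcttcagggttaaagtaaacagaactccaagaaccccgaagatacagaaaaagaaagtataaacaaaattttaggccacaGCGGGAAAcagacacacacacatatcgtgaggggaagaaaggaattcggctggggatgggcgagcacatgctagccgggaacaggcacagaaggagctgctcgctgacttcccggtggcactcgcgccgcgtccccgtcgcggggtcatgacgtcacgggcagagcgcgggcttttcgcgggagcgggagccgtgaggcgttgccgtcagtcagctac
Topbp1, chr9:103305077-103305376, plus strand: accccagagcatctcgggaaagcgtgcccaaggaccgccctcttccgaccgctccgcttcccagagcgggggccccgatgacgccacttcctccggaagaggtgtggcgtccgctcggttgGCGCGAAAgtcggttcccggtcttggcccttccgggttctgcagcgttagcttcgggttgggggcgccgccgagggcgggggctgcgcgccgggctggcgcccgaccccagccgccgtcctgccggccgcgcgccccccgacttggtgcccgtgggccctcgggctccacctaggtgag
Brip1, chr11:86201144-86201443, minus strand: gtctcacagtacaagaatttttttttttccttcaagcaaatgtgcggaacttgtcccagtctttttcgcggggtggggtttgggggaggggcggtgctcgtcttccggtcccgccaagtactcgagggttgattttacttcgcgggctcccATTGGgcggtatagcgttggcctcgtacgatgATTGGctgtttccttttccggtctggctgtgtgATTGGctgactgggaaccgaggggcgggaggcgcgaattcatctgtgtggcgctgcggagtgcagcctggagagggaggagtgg

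In these windows Msh6 had 1 E2F-type word after its start and 1 CCAAT word before it, Brca2 and Topbp1 had 1 E2F-type word each, and Brip1 had 3 CCAAT words. A match describes letters only, and none of the factors was measured at these windows.

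Of 74 other repair and checkpoint genes, all tested, 3 were called higher and 0 lower (5.19% of all genes were called), with a median log2 fold change of 0.19, and in 10 of them the groups did not overlap (16.6% of all genes). Timeless, which stabilizes replication forks, was at 44.1, 36.3 and 29.5 CPM in WT and at 279, 269 and 266 CPM in K794Q cultures A, B and C, a log2 fold change of 2.89 (SE 0.21, edgeR adjusted p = 0.0198) that was 1.70 with the regional level of chromosome 10 taken into the fit (edgeR adjusted p = 0.177). It was called under every alternative, but its edgeR adjusted p was also above 0.05 with WT cultures A and B summed, and without WT culture A, WT culture B, K794Q culture A or K794Q culture C. All its K794Q cultures were far above all WT cultures, and alike, which was seen in 0 of the 44 members. Ercc5, the nuclease that cuts 3′ of a lesion, had a log2 fold change of 1.01 (SE 0.27, edgeR adjusted p = 0.252) without overlap, and Dna2, a nuclease of end resection, had 1.70 (SE 0.63, edgeR adjusted p = 0.421) with K794Q culture B, at 8.97 CPM, within the WT range. Without either WT culture B or C, without K794Q culture C, or with no filter on low counts, Ercc5 was no longer called, and Dna2 was no longer called without WT culture A or B or K794Q culture A or C, with the regional level in the fit, or with WT cultures A and B summed. Among p53 target genes, several of which act when damage is signalled, 7 of 18 tested were called higher and 0 lower. Of all genes tested, 3.48% were called higher and 1.71% lower. The 5 largest fitted log2 fold changes were those of Eda2r (4.78), Gdf15 (3.85), Cdkn1a (3.14), Zmat3 (2.74) and Ccng1 (2.17). Their edgeR adjusted p-values were 0.0776, 0.183, 0.0198, 0.0825 and 0.0336, in that order. Of the 18 genes 3, Cdkn1a, Ccng1 and Mdm2, were at or under 0.05, beside 0.181% of all genes tested. Gdf15 was at 3, 0 and 1 counts in WT and at 24, 11 and 22 counts in K794Q cultures A, B and C. Its WT counts were at or below the limit of 3 counts given above, so its fold change and rank are not exact. The order of cultures shared by most members held in 3 of these 18 genes, whose summed level was 1688, 1649 and 1330 CPM in WT and 3153, 3714 and 2541 CPM in K794Q cultures A, B and C, led by Plk2, and the part of p53 signalling in the levels of the repair genes was not tested.

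Markers of the labelled cell type were present in every culture. All 10 endothelial markers were tested and 0 were called by edgeR's test, 0 of them at an unadjusted p of at most 0.05. Their summed level was 8576, 9490 and 8702 CPM in WT and 7098, 13739 and 7759 CPM in K794Q cultures A, B and C, with Pecam1 the most abundant. K794Q culture B, where most members were low, was thus the highest in this sum, though not for Kdr or Erg. Of 10 mesenchymal markers 2 were tested, 1 of which, Prrx1, was called lower. The summed mesenchymal level was 184, 194 and 85.3 CPM in WT and 3.65, 3.75 and 2.58 CPM in K794Q cultures. Prrx1 made up most of it in WT, and without it the sum was 0.786, 1.2 and 28.9 CPM in WT and 3.56, 3.65 and 2.58 CPM in K794Q cultures A, B and C, highest in WT culture C, where Pdgfra was at 16.4 CPM and Col1a1 at 5.91 CPM, whereas Col1a2 was at 3.15 CPM in K794Q culture B and at 0 counts in WT culture C. Of these markers, Dcn, Lum and Thy1 were at 0 counts throughout. Of 6 leukocyte markers 0 were tested, with Csf1r the most abundant, a summed level of 11.1 CPM in WT culture C and at most 0.859 CPM in the other cultures, and Cd3e at 0. Of 6 epithelial markers 0 were tested, with a summed level of at most 0.591 CPM, Krt8 the most abundant and Epcam at 0. The part of these other markers in the levels of the repair genes was not tested.

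Annotated exons of several members overlap exons of other genes, mostly on the opposite strand, and whether reads were counted by strand is not given in the sources used here. The longest overlaps were those of Trp53bp1 with Tubgcp4 (2130 bases), Lig3 with Rffl (1826), Fancc with Gm16133 (1373), Rad54l with Lrrc41 (1184), Ercc2 with Gm26852 (1025), Fanci with Polg (921) and Fanca with Zfp276 (920). The overlap of Msh6 with Fbxo11 was 34 bases.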

How the data were processed

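The deposited table holds the authors' raw gene counts for 6 cultures, with 0 columns of other samples. Per the submitters' processing notes, reads were demultiplexed with bcl2fastq 2.20.0, aligned to mm10 with STAR 2.7.4a and counted with HTSeq 0.9.1, and the submitters used edgeR 3.38.4. Here edgeR 4.0.16 (limma 3.58.1, R 4.3.3) filtered genes by group with filterByExpr, scaled libraries by TMM and tested K794Q against WT with the quasi-likelihood F-test. Adjusted p is Benjamini-Hochberg over the 11608 genes tested, and SE is the log2 fold change divided by the root of F. The fit was tested on simulated data. Tables, promoter words and figures were made with Python 3.11.15, pandas 2.3.3, numpy 2.4.6 and matplotlib 3.10.9. Positions and exon lengths are from GENCODE M21 (GRCm38).

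Alternatives were DESeq2 1.42.0, the likelihood ratio test, RLE scaling, no filter, at least 10 counts in every culture, the culture letter as a block, each culture left out, WT C and K794Q B left out together, and an offset by the running median of 25 neighbouring genes. Summing WT A and B, the alternatives for overlap and for genes that are not members, and the count by adjusted p without WT C and K794Q B were added after the data were seen. Members and lists were chosen with earlier results of these data known. By rule, all members are named, with full values by culture for those past both thresholds or at an unadjusted p of at most 0.05, the 5 highest and 5 lowest by log2 fold change, and 1 or 2 well known members of each role, and genes past both thresholds are named from the other lists, at most 5 a direction. The values of Bard1, Exo1, Fancg, Ercc6, Topbp1, Parp2 and Lig4 were added after they were seen. Promoters of 8 members were not found by symbol and were left out.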

Additional observations from a re-analysis of the deposited data

How the results depend on the processing

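Of 705 fold changes recomputed for single genes under the alternatives, 617 kept their direction and side of the thresholds, 25 passed them newly, 15 no longer passed and 48 reversed; the cause was not tested. All genes called, 603 with all cultures, were 916 without a filter, 470 to 934 without 1 culture and 1560 without WT C and K794Q B. Members called, and members called higher, were 2 with the regional level (Msh6, Rad51c; 4.33% of all genes called), 0 to 7 without 1 culture, 17 without WT C and K794Q B and 0 with WT A and B summed; 0 were lower under every alternative. Members without overlap were 1 with RLE (16.6% of all genes), 1 to 15 without 1 culture (19.9% to 38.5%) and 37 without both (62.3%), a fit of 2 against 2 that leaves out the cultures through which most members overlapped, and the median of 0.29 was 0.0705 to 0.84 over these fits. With the culture letter as a block, 2 members were called (Lig1, Msh6; 4.92% of all genes), Rbbp8 reversed to 0.0176 and Fancc to −0.0366, and the edgeR adjusted p of Timeless was 0.166; cultures of the same letter correlated at 0.109, 0.0550 and 0.102, so the letters were not taken as pairs. With WT A and B summed, Xrcc2 was −0.0237, Fancc −0.0394, Fanci −0.14, Xrcc6 −0.0549 and Ercc2 0.0156, and with the regional level Rbbp8 was 0.18 and Parp1 0.29. Without 1 culture or without both, the ranges of the genes that reversed were −0.25 to 0.0382 (Trp53bp1), −0.19 to 0.97 (Xrcc2), −0.12 to 0.30 (Rbbp8), −0.44 to 1.12 (Blm), −0.18 to 1.68 (Exo1), −0.0599 to 1.77 (Fanca), −0.0446 to 0.61 (Fancb), −0.33 to 0.37 (Fancc), −0.71 to 0.88 (Fancd2), −0.37 to 1.15 (Fanci), −0.0803 to 1.02 (Fancl), −0.67 to 0.30 (Xrcc5), −0.10 to 0.66 (Xrcc6), −0.18 to 0.39 (Lig4), −0.58 to 0.11 (Parp1), −0.47 to 0.55 (Ercc1), −0.33 to 0.0669 (Ercc2) and −0.18 to 0.35 (Ercc6). The lowest count of a member was 19, and the part of depth in the spread was not tested.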
